A study of Mus musculus with 18 samples.

Results

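The genes described here encode the proteins of the cytosolic ribosome. They were taken by name from the RefSeq annotation of mouse build GRCm38.p6: protein-coding genes called Rpl or Rps and a number, with Rplp0, Rplp1, Rplp2 and Rpsa, and without the S6 kinase genes and Rps19bp1. The rule found 77 genes among 21770 protein-coding genes of the nuclear chromosomes, 46 for the large (60S) subunit and 31 for the small (40S) subunit. Rps3a1 was kept, since it is the coding Rps3a gene in this table. Set beside them were 8 like-named paralogues whose symbols end in l or in l and a number, 5 coding genes named as retrogenes or pseudogenes, and 323 ribosomal protein pseudogenes.

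The assay was ATAC-seq, which reads where a transposase can insert into DNA. The cells were cortical neurons cultured from CD1 embryos. All 18 samples were transduced with lentiviral short hairpin RNAs (shRNAs) at day 6 and harvested at day 11, after cytosine arabinoside at 2 µM, a drug that kills dividing cells. The groups were shControl with shScrambled (5 samples), shControl with shAtf4 (3), shOpa1 with shScrambled (5) and shOpa1 with shAtf4 (5), where Opa1 is needed for fusion of the inner mitochondrial membrane and Atf4 drives transcription in the integrated stress response. The study's question was how Atf4 knockdown alters accessibility in normal and in mitochondrially stressed neurons. The file analysed is 1 consensus list of 211682 peaks (mm10) with no column for a sample or group, so no value below belongs to a knockdown, no groups are compared, and there are no replicates. The depth of the samples is unknown, and the sources used here do not say which samples entered the list.

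A ribosome joins a small subunit, which reads the messenger RNA, to a large subunit, which makes the peptide bond. Its proteins are needed in nearly equal amounts in every cell, and neurons also translate in dendrites and axons. Messenger RNAs of ribosomal proteins are known for starting with a C and a run of pyrimidines, the 5′ terminal oligopyrimidine (TOP) tract, through which the kinase mTOR and the RNA-binding protein LARP1 set their translation. Atf4 itself is induced when the kinases of the integrated stress response lower general translation.

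Start regions are shown first, because all members with a listed start had a peak there and because the sequence at the start is what the family is known for. Each line gives 40 bases before and 20 bases from the first transcribed base on (GRCm38.p6, RefSeq, first start listed for the gene), read 5′ to 3′ in the direction of transcription. Capitals mark a run of at least 5 C or T bases that holds the start or begins within 5 bases of it. The first 7 are members with runs of 10 or more bases, from both subunits. Rpl7a had the longest run of the members, 21 bases, and Rps6 encodes the substrate of the S6 kinases.
Rpl7a (chr2:26910767-26910826, plus strand): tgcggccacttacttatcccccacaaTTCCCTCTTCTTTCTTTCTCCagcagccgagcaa
Rpl27a (chr7:109519155-109519214, plus strand): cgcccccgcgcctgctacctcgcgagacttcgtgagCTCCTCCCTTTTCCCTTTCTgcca
Rpl35 (chr2:39005112-39005171, minus strand): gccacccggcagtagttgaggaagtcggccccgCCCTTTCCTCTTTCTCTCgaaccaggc
Rplp2 (chr7:141447611-141447670, plus strand): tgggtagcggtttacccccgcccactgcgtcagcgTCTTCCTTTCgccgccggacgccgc
Rps10 (chr17:27635225-27635284, minus strand): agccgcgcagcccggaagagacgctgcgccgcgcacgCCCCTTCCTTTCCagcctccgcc
Rps18 (chr17:33955646-33955705, minus strand): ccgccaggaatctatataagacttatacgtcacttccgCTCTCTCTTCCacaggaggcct
Rps6 (chr4:86857348-86857407, minus strand): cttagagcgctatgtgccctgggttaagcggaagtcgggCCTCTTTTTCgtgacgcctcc

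Members with no such run at the first listed start also had a peak over it. Rpl5 and Rpl11, whose products bind 5S ribosomal RNA and the p53 regulator MDM2, are shown for that reason. For Rpl5 this depends on the start used. Its outermost gene end, 107900508, lies upstream of the listed start, 107900528. In the printed line a run of C and T bases begins at that end, too far from the listed start to be counted.
Rpl5 (chr5:107900488-107900547, plus strand): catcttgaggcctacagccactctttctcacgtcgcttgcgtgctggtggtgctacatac
Rpl11 (chr4:136053374-136053433, minus strand): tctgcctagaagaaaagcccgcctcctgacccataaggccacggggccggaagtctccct

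Pairs of a namesake and its paralogue are shown because some differed in whether a peak lay over the start. Rps27 and Rps27l both had a peak over the start. Rpl39 had one and Rpl39l had none, and Rpl10 had one and Rpl10l had none.
Rps27 (chr3:90213629-90213688, minus strand): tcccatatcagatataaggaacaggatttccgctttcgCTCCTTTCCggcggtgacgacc
Rps27l (chr9:66946046-66946105, plus strand): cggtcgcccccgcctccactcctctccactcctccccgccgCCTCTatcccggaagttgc
Rpl39 (chrX:37085203-37085262, minus strand): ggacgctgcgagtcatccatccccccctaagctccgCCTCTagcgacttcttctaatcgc
Rpl39l (chr16:10170188-10170247, plus strand): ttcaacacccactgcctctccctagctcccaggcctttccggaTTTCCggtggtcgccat
Rpl10 (chrX:74270776-74270835, plus strand): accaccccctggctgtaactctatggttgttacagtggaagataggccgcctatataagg
Rpl10l (chr12:66284382-66284441, minus strand): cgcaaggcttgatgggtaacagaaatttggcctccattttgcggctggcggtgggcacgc

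Of the 77 members, 75 (97.4%, exact Clopper-Pearson 95% interval 90.9 to 99.7%) had a consensus peak with any base within 1000 bp of either outermost gene end, against 70.4% of all protein-coding genes. Both subunits were covered alike, with 45 of 46 genes of the large subunit and 30 of 31 of the small one. Members are short genes, with a median length of 3175 bp, and among the 8722 protein-coding genes no longer than the longest member the share was 55.2%. Intervals here cover counting of genes only, genes are not replicates, and no test was run, since the family was chosen by name with earlier results of these data known. Of 78 mitochondrial ribosomal protein genes 76 had an end peak, and of 40 proteasome subunit genes 38, so a share of this size was also found in other housekeeping families.

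The 2 members without an end peak had peaks inside the gene. Rps2, a protein at the channel where messenger RNA enters (chromosome 17, 24718121 to 24721927), had a peak of 1139 bp from 24719566 to 24720704. Its first listed start, at 24720063, lies inside that peak and well inside the outermost gene end. Rpl17, which lines the exit tunnel of the nascent peptide (chromosome 18, 74998978 to 75003381), had peaks of 235 and 743 bp that begin 1109 and 1386 bp from its lower-coordinate end. With these, all 77 members had a peak in the gene or within 1000 bp of it, against 78.9% of all protein-coding genes.

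A start of transcription was listed for 57 members, and a peak lay over the first listed start in all 57 (100%, exact interval 93.7 to 100%), against 60.7% of 17491 protein-coding genes with a listed start. They were 34 genes of the large and 23 of the small subunit. The start peak had a median width of 1168 bp (quartiles 1005 and 1251 bp, range 205 to 1543 bp). It reached a median of 456 bp upstream of the start and 655 bp downstream. The downstream arm was the longer one in 40 of the 57, a count not made over all protein-coding genes. For all protein-coding genes with a covered start the medians were 1163 bp wide, 478 bp upstream and 630 bp downstream, close to the members' values. What set the members beside the background was the share with a peak, and the median extents were similar. No start was listed for 20 members, among them Rpl3, Rpl7, Rpl17, Rpl32, Rplp1 and Rps27a. Of these 20, all but Rpl17 (19 genes) had a peak over the base of a gene end, against 57.9% of all protein-coding genes.

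**Figure D1:**
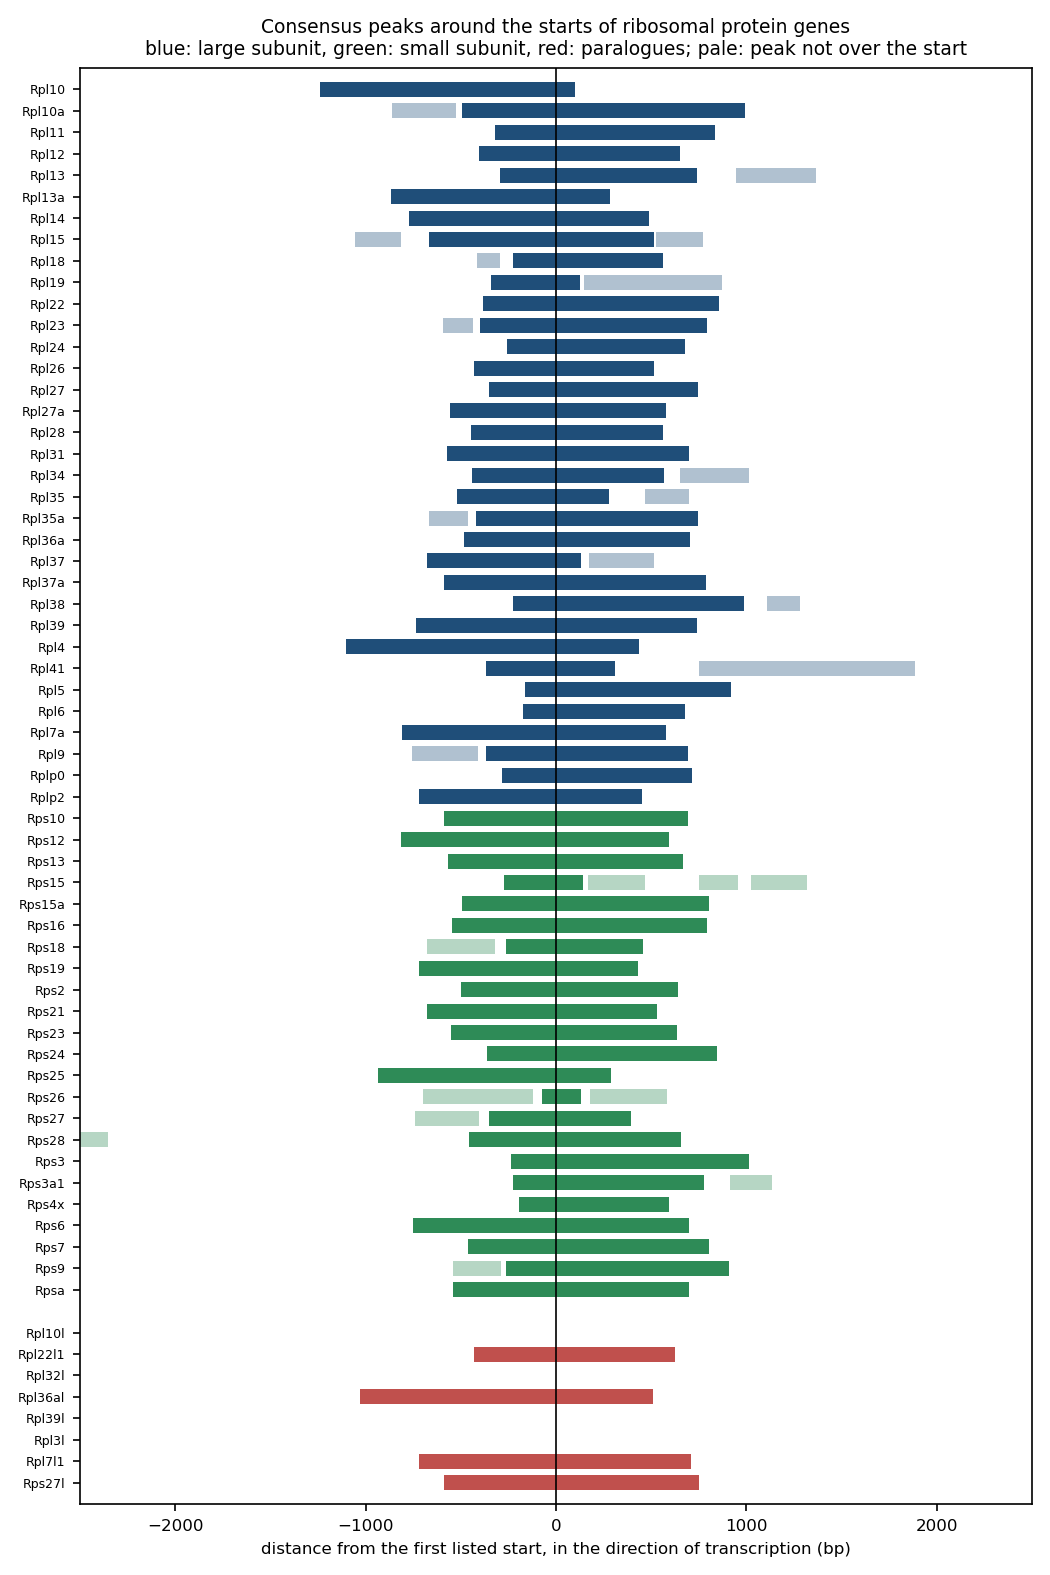
Consensus peaks within 2500 bp of the first listed start (horizontal axis, bp in the direction of transcription) for the 57 members with a listed start and the 8 paralogues, 1 row per gene. Blue rows are large-subunit genes, green rows small-subunit genes and red rows paralogues, and pale bars are peaks not over the start. Every member row has a bar across 0, and 4 of the 8 paralogue rows have none.

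**Figure D2:**
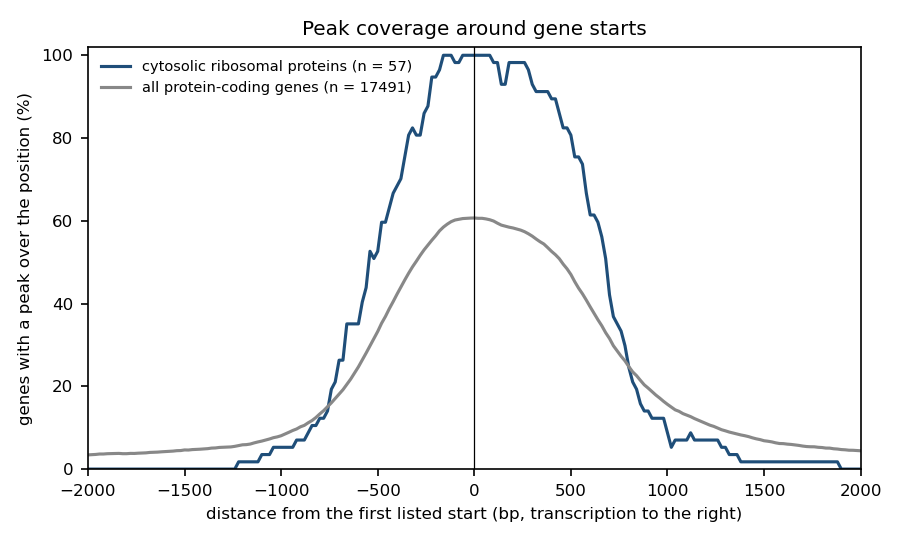
Percent of genes with a peak over each position from 2000 bp upstream to 2000 bp downstream of the first listed start, for the 57 members and for 17491 protein-coding genes. At the start itself the lines stand at 100% and 60.7%, and upstream of about 1300 bp no member is covered.

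The start peaks were not centred alike. Rpl10 (chromosome X), a protein of the large subunit joined late in its assembly, had a peak from 1238 bp upstream to 99 bp downstream of its start. Rpl4, of the exit tunnel, had one from 1105 bp upstream to 437 bp downstream, and that peak also lay over an end of the neighbouring gene Zwilch. At the other extreme Rps3, of the messenger RNA entry channel, reached 238 bp upstream and 1012 bp downstream. Rpl5 reached 164 bp upstream and 917 bp downstream.

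In some members the accessible region was split into pieces. Rps26 (chromosome 10) had 3 peaks at its upper-coordinate end, and the one over the start was 205 bp wide, the narrowest start peak of the family. Rps15 had a start peak of 416 bp and Rpl19 one of 469 bp, each with a second peak close by. When peaks up to 100 bp apart were joined, 14 of the 57 start peaks (24.6%) grew, against 23.0% of covered starts of all protein-coding genes. Joined, Rps26 spanned 1285 bp from 3 peaks, Rpl19 1215 bp and Rps15 743 bp, and the range over members became 677 to 1852 bp. The joined median was 1212 bp for members and 1249 bp for all protein-coding genes with a covered start, so joining put the members' median below that of the background.

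The widest end peak per member had a median of 1207 bp (quartiles 1049 and 1342 bp, range 416 to 2378 bp, 75 genes), beside 1133 bp for all protein-coding genes (quartiles 842 and 1398 bp). The members' middle range was narrower, 293 bp between quartiles against 556 bp, and 60 of 75 (80%) lay between 900 and 1500 bp, against 53.2% of all protein-coding genes with an end peak. The medians were 1170 bp for the large subunit and 1239 bp for the small one. Mitochondrial ribosomal protein genes had a median of 1047 bp with 382.75 bp between quartiles, and proteasome genes 1042.5 bp with 190.25 bp. Genes with TOP messenger RNAs outside the ribosome had 288.75 bp between quartiles and those of RNA polymerase I 271.25 bp, so other families were as narrow. These are descriptions of 1 list, and the differences between families were not tested.

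**Figure D3:**
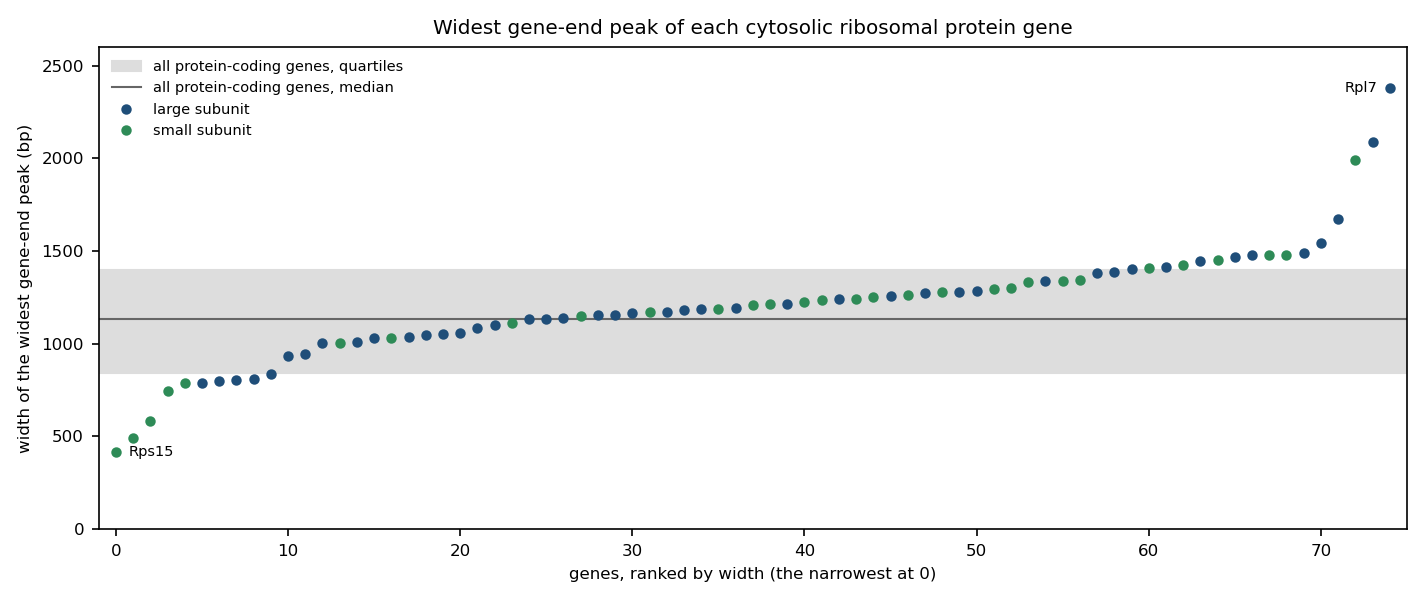
Width in bp of the widest gene-end peak of each of the 75 members that have one, ranked from narrowest to widest along the horizontal axis, with large-subunit genes in blue and small-subunit genes in green. The grey band and line are the quartiles and median of all protein-coding genes, and members run from Rps15 at 416 bp to Rpl7 at 2378 bp.

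Among the 10 members with the widest end peaks were Rpl7, Rpl3, Rpl6, Rpl4, Rpl10a, Rpl39 and Rpl19. At Rpl7, of the large subunit, 1 peak of 2378 bp (chromosome 1, 16104006 to 16106383) lay over its upper-coordinate end and also over an end of Rdh10, a retinol dehydrogenase gene. At Rpl3, which lies near the peptidyl transferase centre, the widest peak of 2089 bp (chromosome 15, 80075005 to 80077093) lay outside the gene, next to its lower-coordinate end. A peak of 1278 bp lay over its other end.

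Some of these widths were not at the first listed start of transcription. The 1675 bp peak of Rpl6 lay beyond its finish, while its start peak was 855 bp. The 1470 bp peak of Rpl19 lay at its outermost annotated upstream end, over an end of Cacnb1, a calcium channel subunit gene. The peak over its first listed start, further inside the gene, was 469 bp. Of the 57 members with a listed start, the widest end peak was the start peak in 49. How often that holds over all protein-coding genes was not counted.

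Among the narrowest were Rps15 (416 bp), Rps26 (582 bp), Rps27 (746 bp) and Rps4x (787 bp), all of the small subunit. Rps15, Rps26 and Rps27 were among those whose start region was split. Rps4x had 1 undivided peak.

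By role, the acidic stalk that recruits translation factors had end peaks at all 3 genes. Rplp0, its base, had a start peak of 997 bp and a wider one of 1286 bp at its finish, which lay over an end of Gcn1, whose product activates the stress kinase GCN2. Rplp1 and Rplp2 had 1135 and 1168 bp. Rpl5 and Rpl11, the proteins of the 5S particle, had 1082 and 1157 bp (Rpl11 on chromosome 4, 136052557 to 136053713). Of 9 proteins that line or surround the exit tunnel, 8 had an end peak, with a median of 1255.5 bp. Rpsa, also known as a laminin receptor, had 1241 bp, Rps6 had 1451 bp (chromosome 4, 86856668 to 86858118), and Rps27a, made as a fusion with ubiquitin, had 1032 bp. Of 15 listed members known from Diamond-Blackfan anaemia, a failure of red cell production, 15 had an end peak, with a median width of 1157 bp. Of proteins of the messenger RNA entry channel, Rps3 had an end peak of 1251 bp and Rps2 had none. These counts are parts of the 97.4% of the whole family, in which only Rpl17 and Rps2 had no end peak. The role medians lay between 1119.5 and 1255.5 bp.

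The 4 members on chromosome X all had a peak over the start, against 45.5% of the 817 protein-coding genes with a listed start on that chromosome. Rpl39 had 1478 bp (37084480 to 37085957), Rpl10 1338 bp (74269578 to 74270915), Rpl36a 1186 bp (134585170 to 134586355) and Rps4x 787 bp (102188800 to 102189586). The other members were spread over 18 more chromosomes, with 14 on chromosome 7.

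By its median, the number of peaks around members was above that of genes of like length and below that of all protein-coding genes. The median was 4 peaks in the gene and 10 kb on each side (range 1 to 12), against 5 for all protein-coding genes and 2 for those no longer than the longest member. Rpl5, Rpl30, Rpl36a, Rps4x and Rps6 had 1 peak each. Rpl19 had 12, Rps15 10 and Rps10 9. Among the 57 with a listed start, 18 (31.6%) also had a separate peak within 1000 bp of the finish, against 23.1% of all protein-coding genes with a start, and in 4 of these 18 a finish peak lay over another protein-coding gene's end (among them Gcn1 at Rplp0, B3galt4 at Rps18 and Snapc5 at Rpl4).

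Some end peaks were shared with a neighbour. In 18 members the widest end peak lay over an end of another protein-coding gene. This count was not made over all protein-coding genes, so it does not show whether sharing is more or less usual in members. It was the peak over the first listed start in 11 of them and another peak in 4 (Rpl19, Rpl41, Rplp0 and Rps18), and 3 had no listed start. In alphabetical order the first 8 were Rpl12 (Lrsam1), Rpl15 (Nkiras1), Rpl19 (Cacnb1), Rpl35a (Iqcg), Rpl37 (Card6), Rpl4 (Zwilch), Rpl41 (Zc3h10) and Rpl7 (Rdh10). When every peak within 1000 bp of another protein-coding gene's end was left out, 58 members (75.3%) kept an end peak, against 57.5% of all protein-coding genes. The 17 that lost theirs include Rpl12, Rplp2, Rps25 and Rps28. A peak in such a place cannot be assigned to 1 of the 2 genes. Small nucleolar RNA genes, whose products guide modification of ribosomal RNA, lay inside 30 members, 59 genes in all. Of the 30, 28 had an end peak, beside 97.4% of all members and 70.4% of all protein-coding genes. The 2 others were Rpl17 and Rps2, and a link with the small nucleolar RNA genes was not tested.

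The 8 like-named paralogues were less uniform than their namesakes. A peak lay over the first listed start in 4 of 8 (50%, exact interval 15.7 to 84.3%), against 60.7% of all protein-coding genes with a listed start. In 5 of 8 a peak lay at an end (interval 24.5 to 91.5%), against a background of 70.4%. Both intervals are wide enough to hold the background. Those with a start peak were Rpl22l1 (1055 bp, chromosome 3, 28805077 to 28806131), Rpl36al (1541 bp, also over an end of Mgat2), Rpl7l1 (1427 bp) and Rps27l (1342 bp, chromosome 9, 66945496 to 66946837). Their namesakes had 1239 bp at Rpl22, 1186 bp at Rpl36a, 2378 bp at Rpl7 and 746 bp at Rps27, so neither partner was the wider one throughout.

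Of the 4 paralogues with no peak over the start, Rpl10l and Rpl39l had no peak in the gene or its 10 kb flanks. Both are known for expression in male germ cells, where Rpl10l stands in for the X-linked Rpl10. Their namesakes Rpl10 and Rpl39 had start peaks of 1338 and 1478 bp. Rpl32l had none at an end but 3 within 10 kb, and Rpl32 had an end peak of 1411 bp. Rpl3l, the striated muscle form of Rpl3, had a peak of 964 bp (chromosome 17, 24736121 to 24737084) at its finish and none at its start. That peak lay over an end of the neighbouring gene Msrb1.

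Of the 5 coding genes named as retrogenes or pseudogenes, 3 had an end peak, of 706 bp at Rps23rg1, 518 bp at Rpl34-ps1 and 345 bp at Rpl37rt. Rpl31-ps12 and Rps27rt had none. Of the 323 ribosomal protein pseudogenes, 42 (13.0%, exact interval 9.53 to 17.2%) had an end peak, against 14.0% of 10186 other pseudogenes. Of the 237 that lie away from protein-coding genes, 28 (11.8%) had one, against 11.5% of other pseudogenes so placed. The peaks at ribosomal protein pseudogenes had a median width of 424.5 bp, against 472 bp at other pseudogenes and 1207 bp at the members. Away from protein-coding genes the order was reversed, with 505.5 bp at ribosomal protein pseudogenes and 447 bp at the others. Near-identical copies can take each other's reads or lose them in mapping, and the sources used here do not say how the authors treated such reads.

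**Figure D4:**
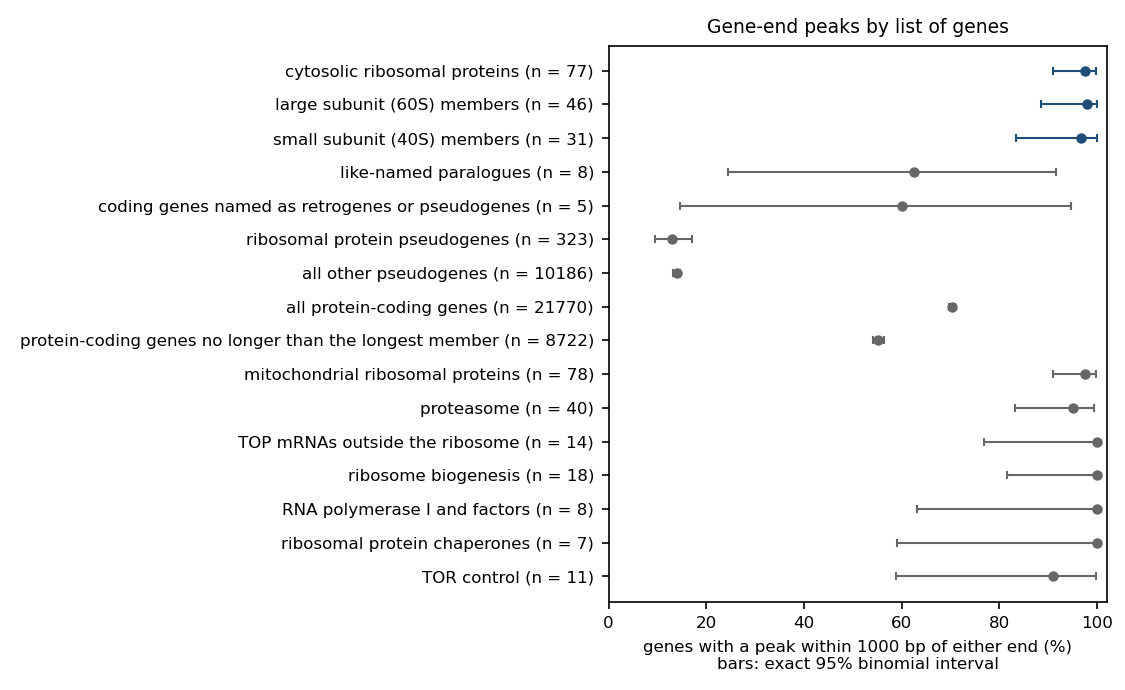
Percent of genes with a consensus peak within 1000 bp of either end, with exact 95% binomial intervals, for the members, their subunits, paralogues, pseudogenes, related lists and all protein-coding genes. Members stand at 97.4%, all protein-coding genes at 70.4% and ribosomal protein pseudogenes at 13.0%.

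Other genes of ribosome production and of its control were similar. Fau, which encodes a ribosomal protein fused to a ubiquitin-like part and is not named Rpl or Rps, had an end peak of 608 bp. Rack1, a scaffold on the small subunit, had 1410 bp. All 14 listed genes with TOP messenger RNAs outside the ribosome had an end peak, with a median of 1207 bp, from 891 bp at Eif3f to 2024 bp at Eef1d, both of which encode translation factors. So did all 18 ribosome biogenesis genes (median 1199 bp, among them 1531 bp at the nucleolin gene Ncl and 526 bp at Nop10), all 8 of RNA polymerase I and its factors, and all 7 chaperones of single ribosomal proteins. Of 11 genes of mTOR control, 10 had one, with 2272 bp at the cap-binding protein gene Eif4e and 2013 bp at its inhibitor gene Eif4ebp1. Larp1 had none at an end.

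The targeted genes Atf4 and Opa1 had end peaks of 1401 and 1008 bp, which do not check the knockdowns, since an shRNA acts on RNA. The cell type label was checked on marker genes by their end peaks. Pan-neuronal genes had one in 8 of 8 cases, inhibitory markers in 4 of 4 and excitatory cortical markers in 3 of 4. Astrocyte markers had one in 2 of 4 (none at Aqp4 and Aldh1l1), oligodendrocyte, microglia and hepatocyte markers in 1 of 4 each (Mbp, Cx3cr1 and Apoa2). The share over all protein-coding genes was 70.4%. Where a start was listed, a peak lay over it in 6 of 6 pan-neuronal, 3 of 3 excitatory and 4 of 4 inhibitory markers. The counts were 0 of 3 for astrocytes and for oligodendrocytes, 0 of 4 for microglia and 0 of 3 for hepatocytes. Over all protein-coding genes with a listed start the share was 60.7%.

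In sequence, members' promoters were rich in CpG. Over the 300 bases from 250 before to 50 after the first listed start, the CpG observed over expected ratio had a median of 0.903 (quartiles 0.736 and 1.01), against 0.576 (0.220 and 0.829) for 17491 protein-coding promoters, while GC content was similar, with medians of 58% and 56.3%. A ratio of at least 0.6 was found in 50 of 57 members (87.7%) and in 48.3% of all. Among protein-coding promoters with such a ratio, 95.2% had a peak over the start, so for these 50 members a covered start was near the background of its class. Among promoters below 0.6 the share was 28.4%, and the 7 members in that class all had one (exact interval 59.0 to 100%). They were Rpl6 (ratio 0.421), Rpl11 (0.471), Rpl27 (0.536), Rps25 (0.542), Rpl24 (0.587), Rpl15 (0.596) and Rps4x (0.598), of which the last 3 lay just under the threshold. Of the paralogues, Rpl10l (0.64) and Rpl39l (0.84) were above it and had no peak.

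A pyrimidine run at the start, as defined above, was found in 26 of 57 members (45.6%) and in 23.2% of all protein-coding promoters. Those 26 were 15 of 34 members of the large subunit and 11 of 23 of the small one. Runs of 8 or more bases were found in 18 members (31.6%) and in 6.00% of all. The share of C or T was higher in members at 10 of the first 10 transcribed positions and at 38 of the next 40, so the excess was not confined to the start. It was higher at 32 of the 50 positions before the start. The first transcribed base was C in 20 members (35.1%), against 13.7% of all, and C or T in 49.1% against 23.1%. No run was found in 31 members. RefSeq starts can lie some bases from the main start used in a tissue, and the run was counted only close to the listed one. Of the paralogues, Rpl22l1 and Rpl32l had runs of 10 bases and Rpl39l and Rps27l runs of 5, and Rpl32l and Rpl39l had no start peak.

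**Figure D5:**
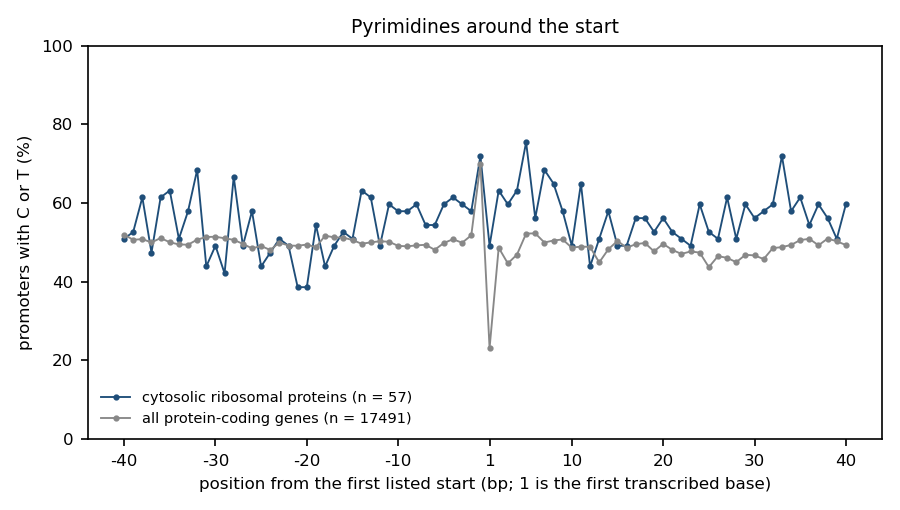
Percent of promoters with C or T at each position from 40 bases before to 40 bases after the first listed start, for 57 members and 17491 protein-coding genes. At the first transcribed base the members stand at 49.1% and all genes at 23.1%, and members stay higher at most positions further downstream as well.

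Motifs were searched on both strands of the same 300 bases. A CpG-rich palindrome, which reads the same on both strands and is spelled in capitals in the lines that follow, was found in 5 of 57 members (8.77%) and in 0.715% of protein-coding promoters. Its sites are shown with flanking bases in lower case. They begin between 54 bases before the start and the base just before it, and all 5 lie inside the start peak. The searched bases surround a start that was covered in all 57 members. A site of this or any motif below was therefore likely to lie inside the start peak.
Rpl12 (chr2:32961643-32961682, plus strand): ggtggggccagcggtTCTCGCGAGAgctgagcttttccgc
Rpl26 (chr11:68901525-68901564, plus strand): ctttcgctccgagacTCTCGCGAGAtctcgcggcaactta
Rps6 (chr4:86857394-86857433, minus strand): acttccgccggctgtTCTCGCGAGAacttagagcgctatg
Rps19 (chr7:24884569-24884608, plus strand): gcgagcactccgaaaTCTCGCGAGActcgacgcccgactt
Rps28 (chr17:33824543-33824578, minus strand): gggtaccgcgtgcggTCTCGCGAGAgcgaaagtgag

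The motif CCGGAAGT, of the form bound by ETS factors such as GABPA, was found in 11 members (19.3%) and in 5.29% of all promoters, with 12 sites, all inside the start peak. Rps18 held 2 of them, and 1 site each is shown for Rps18, Rpl37 and Rps25.
Rps18 (chr17:33955718-33955755, minus strand): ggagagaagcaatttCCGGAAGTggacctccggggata
Rpl37 (chr15:5116575-5116612, plus strand): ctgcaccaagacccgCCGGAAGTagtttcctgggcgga
Rps25 (chr9:44407626-44407663, plus strand): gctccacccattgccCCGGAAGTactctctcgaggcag

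The cyclic AMP response element TGACGTCA was found in 5 members (8.77%; Rpl13, Rpl18, Rpl26, Rpl27a and Rps9) and in 2.34% of all promoters, all 5 sites inside the start peak. GGGCGG, of the form bound by SP1, was found in 34 members (59.6%) and 46.3% of all, AAGATGGC, of the form bound by YY1, in 4 (7.02%) and 3.22%, and the E-box CACGTG in 5 (8.77%) and 7.90%. TATAAA was found in 5 (8.77%) and in 13.3% of all. The composite TGATGCAA, of the form bound by ATF4 with a C/EBP partner, was in no member's window and in 0.909% of all promoters, which says only that these letters are not in these 300 bases. The motifs share letters (CCGGAAGT and the palindrome hold CpG, which members are rich in), and the counts were not tested.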

How the data were processed

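The 18 ATAC-seq samples, read as pairs of 50 bp, fall into 4 groups per the labels. The authors deposited 1 consensus list (mm10) with a start, an end and a score per peak. In the authors' deposited score, 98.5% of peaks stand at 1000, so it ranked nothing. MSPC appears in the peak names. MACS2, deepTools and MultiQC are listed, per the submitters' processing notes. For the aligner, transposase shift, filters and thresholds, nothing is given in the sources used here. Knockdown groups could not be tested without values per sample, and protein identities were not analysed here.

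Gene ends were the outermost ones in RefSeq (GRCm38.p6), without 21 genes that have no chromosome and 348 on scaffolds. First listed starts came from its promoter table. Members, lists and motifs were chosen with earlier results of these data known. Named genes are the members without an end peak, the 10 widest, the 5 narrowest, those on X, shared peaks, role groups and all paralogues. Examples of arm lengths, split peaks, low CpG ratios, motif sites and other pathways were chosen after their values were seen. Some genes that the rule names are not reported here. Intervals are exact Clopper-Pearson. The interval search found all 200 planted peaks on simulated data. Tools were pandas 2.3.3, numpy 2.4.6 and scipy 1.17.1 under Python 3.11.15, with figures by matplotlib 3.10.9.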

Additional observations from a re-analysis of the deposited data

How the results depend on the processing

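No paired analysis was possible because the list has no columns for samples, and for the same reason no replicate could be left out. The share of members with an end peak of 97.4% became 100% with a window of 2500 bp (77.0% of all protein-coding genes), 100% within 1000 bp of the first listed start (57 of 57 members, 66.7%), 100% anywhere in the gene or within 1000 bp (78.9%) and 75.3% with peaks at another gene's end left out (57.5%). The wider window and the whole gene take in Rps2 and Rpl17, whose peaks lie inside the gene. The start window leaves out 20 members with no listed start, Rpl17 among them, and the last drops shared peaks by construction. The median of 4 peaks per member and flank was 2 with flanks of 2 kb and 15 with 50 kb, as the span sets it, beside 3 and 14 for all protein-coding genes and 1 and 10 for those no longer than the longest member. With peaks over the start joined, the median width was 1212 bp against 1249 bp for all protein-coding genes, the opposite order to 1207 against 1133 bp at gene ends. The paralogue share moved between 37.5 and 62.5%, within its interval, and the median width between 1168 and 1212.5 bp. A covered start was 100% of members for any listed start and among CpG-rich promoters by construction, since all 57 first listed starts were covered. Only the shares over all protein-coding genes could move, from 60.7% to 62.5% and 95.2%. Settings on any part of the gene, any listed start, CpG class, the start peak's width and joined peaks were added after the data were seen. The depth is unknown, so an absent peak cannot be told from one too weak to be called.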
